A study of Mus musculus with 12 samples.

Results

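The type I interferon stimulated genes were followed as a set of 41 named genes in RNA sequencing libraries of mouse regulatory T cells (Treg), the CD4+ T cells that carry Foxp3 and restrain other immune cells. The members are a list of gene names known to respond to interferon alpha and beta. No measured value enters the rule, but the list was drawn up with earlier results of these data known. All 41 names were found among the 36222 genes of the deposited expression table, each with 1 identifier. Every mouse, WT or mutant, carried Foxp3-YFP-Cre, which places Cre recombinase and a yellow fluorescent protein under the control of Foxp3. WT mice carried this allele only, and conditional knockout (cKO) mice also carried floxed Ikzf1, which encodes Ikaros, so that Cre cuts Ikzf1 only where Foxp3 is or has been expressed. The labels give spleens of individual mice as the source, while the methods of the study name both spleen and lymph nodes for T cell purification in general. The mice used for the ex vivo comparison were 6 to 8 weeks old, the mutant strain had a B6 background, and YFP+ cells were sorted from CD4+ T cells. RNA was taken either directly (ex vivo) or after 4 h of culture with plate-bound antibodies against CD3 and CD28, each at 1 µg/ml (stimulated). Each genotype had 3 libraries ex vivo and 3 stimulated, 12 in all.

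Type I interferons bind a receptor made of IFNAR1 and IFNAR2, whose kinases JAK1 and TYK2 phosphorylate STAT2 among other substrates. STAT2 and IRF9 are parts of ISGF3, which binds the interferon-stimulated response element in the promoters of its targets. The targets include sensors of foreign nucleic acid, enzymes and binding proteins that block viral replication, secreted factors, and STAT2, IRF7, IRF9 and USP18, which in turn amplify or damp the response. Interferon gamma acts mainly through the gamma-activated site, and many genes respond to both kinds of interferon. Ikaros is a zinc finger transcription factor of lymphocytes that can repress or activate its targets.

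The promoters of the members were examined first, because the response element is the sequence feature that defines the pathway. RefSeq promoters (build GRCm38.p6, 250 bases before to 50 after each start, 300 bases in all) were held for 30 of the 41 members, 38 promoters in total. Dhx58, Ifi204, Ly6a, Ly6e, Mx1, Oas2, Parp14, Parp9, Rtp4, Usp18 and Zbp1 had no entry in the table used. The core of the response element (GAAA, any 2 bases, GAAA), read on either strand, was found in 15 of these 38 promoters (39.5%) and in 3.44% of 32851 mouse promoters of the same length. Counted by gene, 14 of 30 members carried it (Bst2, Cxcl10, Ddx58, Eif2ak2, Ifi203, Ifih1, Ifit1, Ifit3, Isg15, Oas1a, Oas3, Rsad2, Stat2 and Trim30a). The gamma-activated site TTCNNNGAA was found in 8 member promoters (21.1%), against 8.30% of all promoters. The word GAANNGAA, in which the repeats start 1 base closer, was in 17 member promoters (44.7%) against 20.1% of all. The Ikaros core GGGAA was in 27 (71.1%) against 62.7%. A match shows only that the letters are present in this window.

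The promoters of 6 members are given because they contrast the letters in the window with the measured response. Stat2, Ifih1, Cxcl10 and Oas1a carry the core and were among the members higher in cKO Treg after stimulation, Isg15 carries 3 overlapping cores and was not, and Samhd1 has no core in its window and had the largest rise on stimulation in cKO Treg. Each is a RefSeq sequence that matched the mm9 genome exactly and once, written 5′ to 3′ on the strand of the gene, and the capitals mark this core or its reverse complement and TTCNNNGAA.
Stat2, mm9 chr10:127707304-127707603, plus strand: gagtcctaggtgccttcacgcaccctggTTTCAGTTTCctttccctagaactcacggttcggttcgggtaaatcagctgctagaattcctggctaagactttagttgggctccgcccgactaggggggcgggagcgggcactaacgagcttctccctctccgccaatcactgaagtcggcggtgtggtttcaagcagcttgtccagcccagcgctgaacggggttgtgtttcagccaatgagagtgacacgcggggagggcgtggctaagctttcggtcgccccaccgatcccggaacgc
Ifih1, mm9 chr2:62484263-62484562, minus strand: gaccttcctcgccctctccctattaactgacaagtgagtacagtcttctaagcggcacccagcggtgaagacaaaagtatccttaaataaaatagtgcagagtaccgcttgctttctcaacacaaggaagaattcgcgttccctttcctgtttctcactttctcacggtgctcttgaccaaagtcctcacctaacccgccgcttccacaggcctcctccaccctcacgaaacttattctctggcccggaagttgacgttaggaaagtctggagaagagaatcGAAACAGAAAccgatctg
Cxcl10, mm9 chr5:92777866-92778165, minus strand: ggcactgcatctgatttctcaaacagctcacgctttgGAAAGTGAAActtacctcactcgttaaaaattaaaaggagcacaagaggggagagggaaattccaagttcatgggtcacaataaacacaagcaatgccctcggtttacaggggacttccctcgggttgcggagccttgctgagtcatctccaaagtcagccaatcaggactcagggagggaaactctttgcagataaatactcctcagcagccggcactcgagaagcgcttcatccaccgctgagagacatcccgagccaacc
Oas1a, mm9 chr5:121357485-121357784, minus strand: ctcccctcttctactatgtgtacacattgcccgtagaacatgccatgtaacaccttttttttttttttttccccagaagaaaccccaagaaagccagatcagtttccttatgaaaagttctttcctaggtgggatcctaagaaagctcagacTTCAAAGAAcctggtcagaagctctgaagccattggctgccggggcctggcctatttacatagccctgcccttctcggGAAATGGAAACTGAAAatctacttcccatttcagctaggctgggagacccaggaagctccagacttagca
Isg15, mm9 chr4:155574878-155575177, minus strand: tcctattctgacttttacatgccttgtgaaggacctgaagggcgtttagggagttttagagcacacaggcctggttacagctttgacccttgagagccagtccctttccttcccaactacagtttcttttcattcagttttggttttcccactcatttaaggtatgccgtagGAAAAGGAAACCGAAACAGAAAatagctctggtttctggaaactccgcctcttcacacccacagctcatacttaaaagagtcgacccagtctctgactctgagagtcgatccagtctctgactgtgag
Samhd1, mm9 chr2:156960783-156961082, minus strand: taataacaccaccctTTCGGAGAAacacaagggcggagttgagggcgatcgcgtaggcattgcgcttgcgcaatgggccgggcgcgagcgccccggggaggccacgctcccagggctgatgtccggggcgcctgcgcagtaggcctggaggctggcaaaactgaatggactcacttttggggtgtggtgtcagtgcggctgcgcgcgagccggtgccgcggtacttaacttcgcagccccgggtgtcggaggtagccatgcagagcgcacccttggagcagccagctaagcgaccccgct

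In Stat2 the core lies on the opposite strand, its centre 217 bases before the start. In Cxcl10 the centre lies 208 bases before the start. In Ifih1 it lies 37 bases after the start, inside the transcribed part. The capitals of Oas1a near the start hold 2 overlapping cores, centred 15 and 9 bases before it, and those of Isg15 hold 3, centred 73, 67 and 61 bases before it. The capitals of Samhd1 and the first capitals of Oas1a are gamma-activated site letters, with their first bases 235 and 98 bases before the start.

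Levels are given as scaled TPM, the deposited TPM (transcripts per length, scaled to library size) divided by 1 factor per library (0.732 to 1.21) that aligns the bulk of the expressed genes. Changes are differences of log2(scaled TPM + 1), which understate the change of low genes, and each comes with its standard error (SE) from limma fitted to all 12 libraries. Adjusted p-values are limma's, two-sided, corrected by Benjamini-Hochberg over 13318 genes whose highest group mean reached 5 TPM, and a gene was called at an adjusted p under 0.05. Of the 41 members 36 reached that level. The other 5 were Oasl1, Mx1, Rsad2, Ifi44 and Ifi204, with highest group means of 4.33, 4.74, 4.54, 1.73 and 2.18 TPM as deposited. The labels name each library as cells of individual mice and pair no libraries across groups. Since RNA was measured in bulk, fewer expressing cells and less RNA per cell cannot be told apart.

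Between 8208659 and 20247649 reads of a library fell in genes, with the cKO stimulated libraries the shallowest as a group (8208659 to 10930376). The targeted gene Ikzf1 checked the labels. It stood at 114, 104 and 113 scaled TPM in WT ex vivo against 42.1, 33.0 and 38.4 in cKO ex vivo, and at 66.6, 71.1 and 68.9 in WT stimulated against 30.0, 30.1 and 23.3 in cKO stimulated. The Treg markers Foxp3, Il2ra, Ctla4, Ikzf2, Ikzf4, Tnfrsf18, Cd4 and Cd3e were abundant in every library, summing to at least 1303 scaled TPM. The single repeat-rich gene Gm10800 took 17.6% to 55.9% of the deposited TPM of a library, and was highest in cKO stimulated (42.9% to 55.9%, against 32.6% to 44.4% in WT stimulated). WT ex vivo 3 was the only library with Xist of a female animal (179 TPM, against 0.624 to 1.36 in the others), and Ddx3y was 0.0970 TPM there against 14.7 to 52.8.

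**Figure D1:**
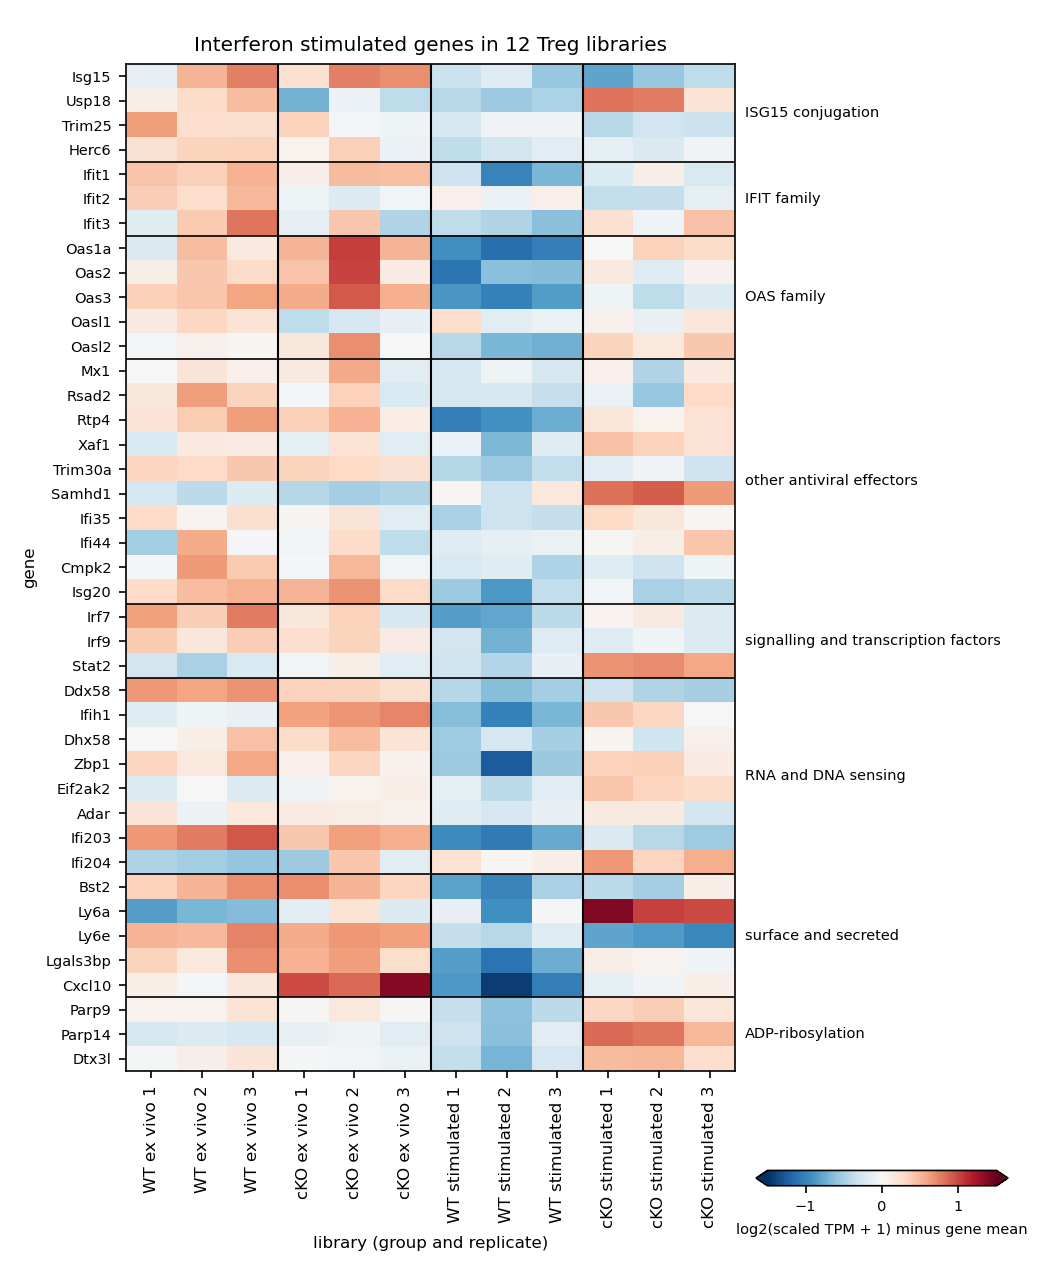
Level of the 41 interferon stimulated genes (rows, grouped by role) in the 12 libraries (columns), shown as log2(scaled TPM + 1) minus the gene's mean over the libraries, in log2 units from blue (lower) to red (higher). Most rows are blue in WT stimulated, while Usp18, Parp14, Stat2, Samhd1 and Ly6a are red in cKO stimulated.

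In WT Treg most of the set was lower in the stimulated than in the ex vivo cells. The stimulated cells differ from the ex vivo cells by 4 h of culture as well as by the antibodies, and the effects of the culture and of the antibodies cannot be told apart. Of the 36 tested members 29 fell and 0 rose, with a median change of -0.72 (log2). All 3 stimulated WT libraries lay below all 3 ex vivo ones for 30 members, as for 26.3% of all tested genes. Over all tested genes 32.0% were called in this comparison, 12.7% higher and 19.3% lower, and the median change was 0.00. At an unadjusted p under 0.05 there were 30 members, the additional one being Adar at -0.28, and none of the 30 was higher. Limma-voom on recovered reads also gave 29 falls and 0 rises. The largest falls were those of Ifi203 (-1.71), Oas3 (-1.36), Rtp4 (-1.30), Lgals3bp (-1.29) and Bst2 (-1.28). Xaf1, Parp14, Eif2ak2, Stat2, Samhd1 and Ly6a, besides Adar, were not called, and of these Ly6a (0.36), Samhd1 (0.25) and Stat2 (0.04) were the only members with a change above 0. On the TPM as deposited, with no scaling, 12 falls were left, and the median of the 13318 genes was 0.18.

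In cKO Treg members moved in both directions on stimulation, as did the genes at large. Members that rose numbered 7 and members that fell 13, with a median of -0.28, where all tested genes gave 43.8% called, 17.3% higher and 26.5% lower, and a median of -0.01. The rises were those of Samhd1 (1.25), Ly6a (1.19), Usp18 (0.99), Parp14 (0.83), Stat2 (0.70), Dtx3l (0.47) and Eif2ak2 (0.30). The largest falls were those of Ly6e (-1.47), Isg15 (-1.14), Cxcl10 (-1.10), Ifi203 (-0.91) and Oas3 (-0.88). The others that fell were Isg20, Bst2, Ddx58, Trim30a, Lgals3bp, Ifih1, Trim25 and Irf9. The count of rises differed between settings. With the TPM as deposited there were 2 rises (Samhd1 and Ly6a) and 16 falls. With genes down to 1 TPM in the scaling and the test, which then covers all 41 members, there were 0 rises and 23 falls, Mx1 and Rsad2 among them, and Dtx3l and Eif2ak2 changed sign (-0.07 and -0.21). Both settings moved the genes at large downward as well. The median of the 13318 genes was -0.309 as deposited and -0.505 at 1 TPM, so these counts are not particular to the members.

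**Figure D2:**
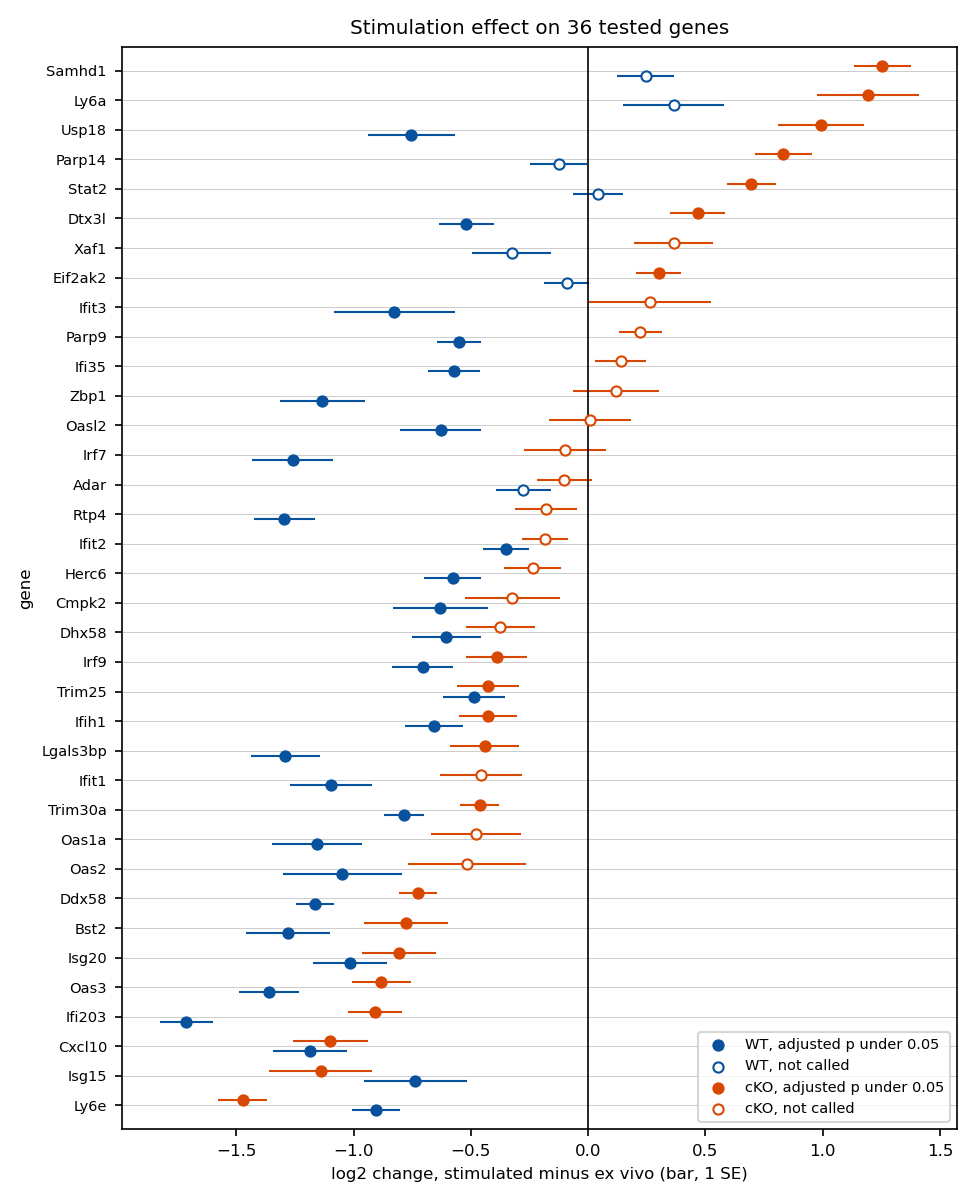
Change on stimulation for each of the 36 tested members, log2 scale, in WT (blue) and cKO (orange), with 1 SE either side. Filled points were called at an adjusted p under 0.05. The blue points lie left of 0 for 33 members, and the orange points lie right of the blue ones except for Ly6e and Isg15.

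Before stimulation the loss of Ikaros changed few members. Cxcl10 (0.98) and Ifih1 (0.79) were higher in cKO, Ifit2 (-0.48) and Ddx58 (-0.33) were lower, and the other 32 were not called. This is 4 of 36 members, against 5.29% of all tested genes (3.62% higher and 1.67% lower), with a median of -0.04 over the members and -0.01 over all genes. The 3 libraries of each genotype did not overlap for 6 members in the higher direction and 7 in the lower, where 11.6% and 9.98% of all genes behaved so. Without WT ex vivo 3, the female library, only Cxcl10 and Ifih1 were called, and without cKO ex vivo 1 the count was also 2. With genes down to 1 TPM in the scaling and the test, limma called 0 members, with 8 at an unadjusted p under 0.05, while limma-voom on recovered reads, with the 5 TPM filter kept, called 8. Summed B cell markers were also higher in cKO ex vivo (18.8 to 23.8 scaled TPM) than in WT ex vivo (11.6 to 18.9), and their part in the result was not tested.

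After stimulation the members were mostly higher in cKO than in WT Treg. Of the 36 tested, 20 were higher by 0.54 to 1.49 (log2), 1 (Ly6e) was lower, and 15 were not called. Over all tested genes 6.93% were called, 3.30% higher and 3.63% lower. The median change of the members was 0.66, and that of all genes -0.04. For 24 members all 3 cKO libraries lay above all 3 WT libraries, and for 3 members (Ifit2, Trim25 and Ly6e) below, where 12.8% and 18.0% of all genes did so. The count was 17 to 21 when any single library was left out, and 20 without cKO stimulated 3, the library with the least depth and the highest Gm10800 share. Among members with a mean of at least 10 scaled TPM over the 12 libraries, 16 of 25 were higher, and among those under it 4 of 11.

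The count of calls differed between settings. With median of ratios factors it was 21 and with quantile normalization 24. With genes down to 1 TPM in the scaling and the test, 0 members were called by limma, 19 had an unadjusted p under 0.05, and the median was 0.28. The same change of factors moved the median of the 13318 genes by -0.27, to -0.31. With the TPM as deposited 1 member (Oas1a) was called, and the median was 0.39, beside -0.30 for the same genes. Limma-voom on recovered reads gave 21 higher and 1 lower.

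Markers of B cells and natural killer cells moved with the same comparison. Summed over 6 B cell markers stimulated WT libraries held 15.0 to 16.3 scaled TPM and stimulated cKO libraries 19.8 to 31.4. The 5 myeloid markers in the table summed to 9.50 to 14.0 against 11.97 to 18.0, the 4 natural killer markers to 8.32 to 9.89 against 11.2 to 15.0, and the 5 plasmacytoid dendritic cell markers to 11.8 to 14.1 against 11.8 to 16.5. The 2 CD8 T cell markers (11.6 to 14.3 against 9.91 to 14.5) and the 5 erythroid markers (4.63 to 5.24 against 4.46 to 8.66) were summed as well. The B cell and natural killer sums did not overlap between the genotypes, and the other 4 did. None of the listed markers was at 0 in every library. The 18 interferon genes that stayed under the 5 TPM filter summed to 30.5 to 53.7 with stimulated cKO cells and to 23.4 to 33.1 with stimulated WT cells, ranges that overlap. The mean was higher in cKO for 15 of these 18 after stimulation and for 11 of 18 ex vivo. These genes had at most 23 reads in any library, and how many other genes at that level were higher in cKO was not counted. The part of these values, and of the depth and the Gm10800 share, in the result was not tested.

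**Figure D3:**
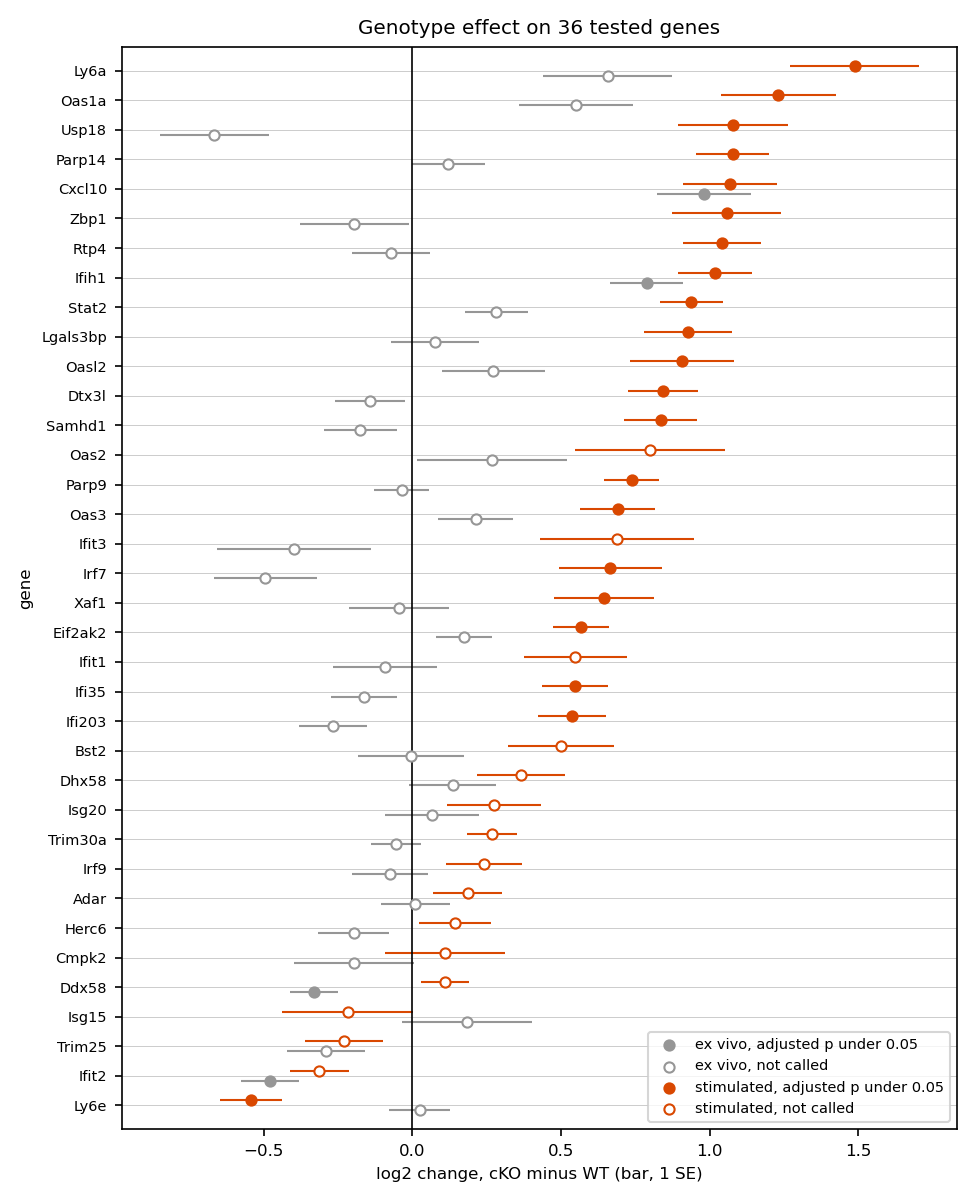
Genotype effect (cKO minus WT, log2 scale) on each of the 36 tested members, ex vivo (grey) and after stimulation (orange), with 1 SE either side. Filled points were called at an adjusted p under 0.05. Of the orange points 20 are filled right of 0 and 1, Ly6e, is filled left of 0, while 4 grey points are filled.

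The difference between the genotype effects, tested as the interaction of genotype and stimulation, was called for 8 members, all with a larger cKO minus WT difference after stimulation than before it. They were Usp18 (1.75), Zbp1 (1.25), Rtp4 (1.12), Samhd1 (1.01), Dtx3l (0.99), Parp14 (0.96), Ifi203 (0.80) and Parp9 (0.77). Over all tested genes 1.10% were called, 0.451% higher and 0.653% lower. The median interaction was 0.58 over the members and -0.04 over all genes, and 34 of 36 members had a value above 0. These calls were less firm than those of the genotype effect after stimulation. The count was 1 with the replicate numbers as a block (Usp18, adjusted p = 0.0364), and 0 with the 1 TPM filter (7 members at an unadjusted p under 0.05) or with the TPM as deposited (4 members). It was 13 with limma-voom on recovered reads. Leaving out 1 library gave between 1 and 8 calls, with 1 call without cKO ex vivo 1, cKO ex vivo 3 or cKO stimulated 1, 2 without WT ex vivo 3, 3 without WT stimulated 2, 4 without WT ex vivo 2 or WT stimulated 1, and 5 without WT stimulated 3 or cKO stimulated 2.

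**Figure D4:**
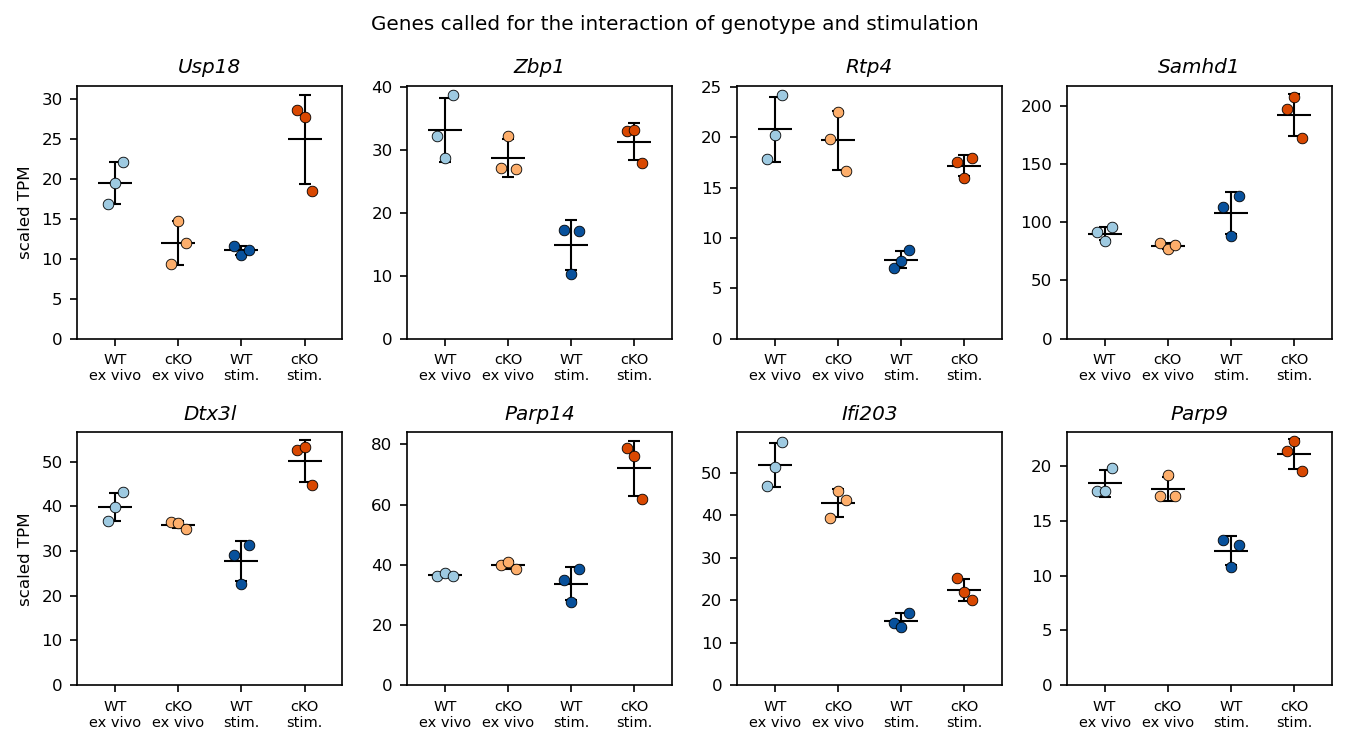
Scaled TPM (linear axis from 0) of the 8 members called for the interaction, 1 point per library, with the mean and SD of each group of 3 as bars. In every panel the 3 cKO stimulated libraries lie above the 3 WT stimulated ones, while the ex vivo groups overlap or lie in the opposite order except for Parp14.

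Among the transcription factors of the pathway, Stat2 (ENSMUSG00000040033, mm9 chr10:127707629-127729905, plus strand), the STAT specific to ISGF3, showed a clear genotype difference after stimulation. Ex vivo it stood at 16.7, 14.3 and 17.3 scaled TPM in WT and at 19.7, 21.6 and 18.0 in cKO. After stimulation WT held 16.4, 14.7 and 18.7 and cKO 32.9, 34.0 and 30.9, so that the cKO stimulated libraries stood above every other library. The genotype effect was 0.94 ± 0.11 (SE; adjusted p = 0.000561), and stimulation changed Stat2 by 0.70 in cKO (adjusted p = 0.000467) and by 0.04 in WT. Irf7 (ENSMUSG00000025498, mm9 chr7:148448605-148452380, minus strand), an amplifier of interferon production, fell in WT from 34.7, 29.1 and 39.2 to 12.2, 12.6 and 16.6. In cKO it went from 25.3, 28.7 and 18.8 to 23.3, 24.6 and 19.2, overlapping values for which no change was called. The genotype effect on Irf7 after stimulation was 0.67 ± 0.17 (adjusted p = 0.0447), and it held in 6 of 12 fits that left out a library (adjusted p up to 0.157) and not with the replicate block (adjusted p = 0.0871). Irf9, the DNA-binding partner in ISGF3, fell in both genotypes (-0.71 in WT and -0.39 in cKO) and was not called between them. Irf9 shares part of its locus with Rnf31 on the same strand, and reads that fall in both were not assigned by the counting used.

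The genes of ISG15 conjugation did not move as a block. Isg15 (ENSMUSG00000035692, mm9 chr4:155573533-155574927, minus strand), the ubiquitin-like protein itself, stood at 11.03, 17.6 and 21.1 scaled TPM in WT ex vivo and at 14.4, 21.1 and 20.4 in cKO ex vivo. After stimulation it stood at 9.54, 10.5 and 7.83 in WT and at 6.61, 7.86 and 9.10 in cKO. It fell in both genotypes, by 0.74 ± 0.22 on the log2 scale in WT (adjusted p = 0.0256) and by 1.14 ± 0.22 in cKO (adjusted p = 0.00214), and the genotypes overlapped after stimulation (-0.22, adjusted p = 0.574). Usp18 (ENSMUSG00000030107, mm9 chr6:121195924-121220934, plus strand), the protease that removes ISG15 and also damps IFNAR2 signalling, took a different course. In WT it went from 16.8, 19.4 and 22.1 to 11.6, 10.5 and 11.1, and in cKO from 9.31, 14.8 and 11.9 to 28.6, 27.8 and 18.5. The order of the genotypes was thus opposite in the ex vivo and stimulated cells, with no overlap in either. The ex vivo difference of -0.67 ± 0.18 was not called (adjusted p = 0.0638), and that after stimulation was 1.08 ± 0.18 (adjusted p = 0.00582). The interaction of 1.75 ± 0.26 had an adjusted p of 0.0132 and stayed under 0.05 without any 1 library (highest 0.0436). Trim25, an E3 ligase that acts on RIG-I, ranged from 15.7 to 33.4 over the libraries and fell on stimulation in both genotypes. Herc6, the ISG15 ligase, ranged from 5.03 to 9.05 and fell in WT only by the test (-0.58), with an uncalled interaction of 0.34.

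Of the cytosolic RNA sensors, Ifih1 (MDA5, ENSMUSG00000026896, mm9 chr2:62433850-62484312, minus strand) was higher in cKO Treg in both states. Its levels ex vivo were 10.3, 11.4 and 10.9 scaled TPM in WT and 18.6, 19.4 and 20.5 in cKO. After stimulation they were 7.28, 5.40 and 7.03 in WT and 16.2, 15.1 and 11.8 in cKO. The genotype effects were 0.79 ± 0.12 (adjusted p = 0.00513) and 1.02 ± 0.12 (adjusted p = 0.000954), and both were called without any 1 library. Ddx58 (RIG-I, ENSMUSG00000040296, mm9 chr4:40150806-40186861, minus strand), the sensor most like it in structure, differed ex vivo in the opposite direction, with 20.6, 19.7 and 21.0 in WT and 16.5, 16.4 and 15.2 in cKO (-0.33 ± 0.08, adjusted p = 0.0386). After stimulation Ddx58 was down to 9.20, 7.87 and 8.65 in WT and 10.1, 9.10 and 8.78 in cKO, and the genotypes overlapped. The ex vivo call on Ddx58 was held in 4 of 12 fits that left out a library, and the highest adjusted p among these fits was 0.142, without cKO ex vivo 3. Dhx58 (LGP2), the regulator of both sensors, ranged from 4.55 to 9.99, fell in WT (-0.61) and was not called between genotypes.

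Zbp1 (ENSMUSG00000027514, mm9 chr2:173032113-173044424, minus strand), a sensor of left-handed nucleic acid that can trigger cell death, stood at 32.2, 28.7 and 38.8 scaled TPM in WT ex vivo and at 27.2, 32.3 and 27.0 in cKO ex vivo. Stimulation brought it down to 17.3, 10.2 and 17.1 in WT (-1.13), while cKO held 33.0, 33.1 and 27.9 (0.12, not called). The genotype effect after stimulation was 1.06 ± 0.18 (adjusted p = 0.00634). The interaction of 1.25 ± 0.26 was near the threshold (adjusted p = 0.0495) and was called in 0 of the 12 fits that left out a library, with adjusted p up to 0.136. Eif2ak2 (PKR, ENSMUSG00000024079, mm9 chr17:79251904-79281913, minus strand), the kinase that halts translation, was not called on stimulation in WT, at 9.88, 11.5 and 9.89 before and 10.4, 8.55 and 10.2 after. In cKO it went from between 11.2 and 12.5 to 15.7, 14.7 and 14.2, every stimulated value above every ex vivo value. Its genotype effect after stimulation was 0.57 ± 0.10 (adjusted p = 0.00527). Adar, the RNA editing enzyme, ranged from 28.7 to 40.2 and was called in none of the 5 comparisons.

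Ifi203 (ENSMUSG00000039997, mm9 chr1:175850538-175872803, minus strand), a member of the PYHIN family of DNA-binding proteins, had the largest fall of all members in WT. It dropped from 46.9, 51.5 and 57.4 scaled TPM to 14.7, 13.6 and 17.1 in WT (-1.71 ± 0.11, adjusted p = 3.13e-06) and from 39.3, 45.7 and 43.6 to 25.2, 21.9 and 20.1 in cKO (-0.91, adjusted p = 0.000136). WT was above cKO in every library ex vivo and below it in every library after stimulation. The difference after stimulation was 0.54 ± 0.11 (adjusted p = 0.0194), and the interaction was 0.80 ± 0.16 (adjusted p = 0.0454), called in 2 of 12 fits that left out a library, with adjusted p up to 0.125. Ifi203 overlaps Mndal, another PYHIN gene, on the same strand and belongs to a family of close copies, so its counts are uncertain to that extent. Ifi204 of the same family stayed between 0.609 and 2.76.

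The OAS family makes or mimics the synthase of 2′-5′ oligoadenylates, which switch on RNase L. All 4 tested members fell in WT (19.3% of all tested genes did), and 3 of the 4 were higher in cKO than in WT after stimulation (3.30%). Oas1a (ENSMUSG00000052776, mm9 chr5:121346265-121357536, minus strand) stood at 5.24, 9.04 and 7.04 scaled TPM in WT ex vivo, 9.31, 13.9 and 9.34 in cKO ex vivo, 2.83, 2.31 and 2.58 in WT stimulated and 6.25, 8.25 and 7.75 in cKO stimulated. The cKO libraries were above the WT libraries in both states, and the effect was 0.55 ± 0.19 ex vivo (adjusted p = 0.150) and 1.23 ± 0.19 after stimulation (adjusted p = 0.00375). Oas3 (ENSMUSG00000032661, mm9 chr5:121203107-121227670, minus strand) fell from 10.7, 11.3 and 12.8 to 4.01, 3.53 and 4.12 in WT (-1.36, adjusted p = 2.49e-05) and from 12.4, 16.3 and 12.2 to 7.76, 6.05 and 6.94 in cKO (-0.88, adjusted p = 0.000323). It differed between genotypes after stimulation by 0.69 ± 0.13 (adjusted p = 0.00846). Oasl2 (ENSMUSG00000029561, mm9 chr5:115346943-115362243, plus strand), an OAS-like protein, went from 5.17, 5.55 and 5.39 to 3.71, 2.90 and 2.80 in WT, and from 6.06, 9.18 and 5.33 to 6.94, 6.02 and 7.29 in cKO. Its genotype effect after stimulation was 0.91 ± 0.17 (adjusted p = 0.0109). Oas2 was low (1.16 to 8.33), and its difference of 0.80 after stimulation was not called (adjusted p = 0.0876). Oasl1 stayed between 2.69 and 4.96, under the filter. Oas1a has close copies in its cluster, so reads may be split among them. The interferon genes under the filter had a largest group mean of 2.52 in WT stimulated and 3.92 in cKO stimulated.

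The IFIT proteins bind viral RNA that lacks the host cap. All 3 fell in WT (19.3% of all tested genes did), and none was called between genotypes after stimulation (6.93%). Ifit2 (ENSMUSG00000045932, mm9 chr19:34625184-34650909, plus strand) was lower in cKO ex vivo, with 10.9, 10.2 and 11.98 scaled TPM in WT and 7.79, 7.05 and 7.97 in cKO (-0.48 ± 0.10, adjusted p = 0.0182, and 0.0829 without WT ex vivo 3). After stimulation it stood at 8.78, 7.71 and 8.75 in WT and 6.19, 6.22 and 7.35 in cKO, again with no overlap but not called (-0.31, adjusted p = 0.0840). Ifit1 and Ifit3 had the opposite order after stimulation, with every cKO library above every WT library (0.55 and 0.69, adjusted p = 0.0882 and 0.143). Ifit1 ranged from 2.83 to 9.99 and Ifit3, which has a close copy nearby, from 4.34 to 13.4.

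The genes of ADP-ribosylation were the only role group of which every member was called both between genotypes after stimulation (6.93% of all tested genes were) and in the interaction (1.10%). Parp14 (ENSMUSG00000034422, mm9 chr16:35832960-35871630, minus strand), a mono-ADP-ribosyltransferase, was similar in 3 groups, with 36.2, 37.3 and 36.1 scaled TPM in WT ex vivo, 40.0, 41.0 and 38.5 in cKO ex vivo and 34.8, 27.8 and 38.7 in WT stimulated. In cKO stimulated it stood at 78.7, 76.0 and 61.7. Its genotype effect after stimulation was 1.08 ± 0.12 (adjusted p = 0.000561) and its interaction 0.96 ± 0.17 (adjusted p = 0.0278). Dtx3l (ENSMUSG00000049502, mm9 chr16:35926597-35939237, minus strand), an E3 ligase, works as a dimer with Parp9, and the pair lies head to head, overlapping on opposite strands, which the stranded counting kept apart. Dtx3l went from 36.8, 39.8 and 43.1 to 29.1, 22.7 and 31.4 in WT and from 36.6, 36.2 and 34.9 to 52.6, 53.3 and 44.7 in cKO. It thus fell in WT (-0.52, adjusted p = 0.00660) and rose in cKO (0.47, adjusted p = 0.00932), with a genotype effect after stimulation of 0.84 ± 0.12 (adjusted p = 0.00204) and an interaction of 0.99 ± 0.17 (adjusted p = 0.0205). Parp9 (ENSMUSG00000022906, mm9 chr16:35938556-35972691, plus strand) went from 17.7, 17.8 and 19.9 to 13.3, 10.8 and 12.8 in WT and from 17.3, 19.2 and 17.3 to 21.4, 22.3 and 19.6 in cKO. The corresponding values of Parp9 were 0.74 ± 0.09 (adjusted p = 0.00111) and 0.77 ± 0.13 (adjusted p = 0.0212). In fits that left out a library the interaction call held in 3 of 12 for Parp14, in 7 of 12 for Dtx3l and in 6 of 12 for Parp9, and with the replicate block it was lost for all 3 (adjusted p = 0.0756, 0.0624 and 0.0713).

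Among the other antiviral effectors, Samhd1 (ENSMUSG00000027639, mm9 chr2:156923265-156961001, minus strand), which hydrolyses the deoxynucleotides that reverse transcription needs, was the most abundant. It stood at 91.3, 83.7 and 95.5 scaled TPM in WT ex vivo and at 81.8, 76.8 and 80.4 in cKO ex vivo, with WT above cKO in every library. After stimulation it stood at 113, 88.3 and 123 in WT and at 197, 207 and 172 in cKO. The rise in cKO was 1.25 ± 0.12 (adjusted p = 2.41e-05), that in WT 0.25 (not called), and the genotype effect after stimulation 0.83 ± 0.12 (adjusted p = 0.00250). The interaction was 1.01 ± 0.17 (adjusted p = 0.0212), called in 8 of 12 fits that left out a library. Samhd1 overlaps a gene model known only by a clone name on the same strand.

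Rtp4 (ENSMUSG00000033355, mm9 chr16:23610005-23614308, plus strand), a chaperone of membrane receptors with antiviral action, fell only in WT by the test, from 17.9, 20.2 and 24.2 to 7.04, 7.71 and 8.76 (-1.30, adjusted p = 4.25e-05). In cKO it stood at 19.9, 22.5 and 16.7 before and 17.6, 15.97 and 18.0 after stimulation. The genotype effect after stimulation was 1.04 ± 0.13 (adjusted p = 0.00107) and the interaction 1.12 ± 0.19 (adjusted p = 0.0192), called in 7 of 12 fits that left out a library. Ifi35 (ENSMUSG00000010358, mm9 chr11:101309721-101320012, plus strand), an interferon-induced leucine zipper protein, fell from 30.2, 25.4 and 29.3 to 17.3, 19.7 and 19.0 in WT (-0.57), while cKO held 25.4, 28.2 and 22.0 before and 30.5, 27.8 and 25.1 after, which overlap. Its genotype effect after stimulation was 0.55 ± 0.11 (adjusted p = 0.0140, and 0.0618 without cKO stimulated 1), and its interaction of 0.71 was not called (adjusted p = 0.0578). Xaf1 (ENSMUSG00000040483, mm9 chr11:72115131-72127235, plus strand), an antagonist of the apoptosis inhibitor XIAP, went from 7.28, 9.77 and 9.59 to 8.18, 5.11 and 7.56 in WT and from 7.82, 10.2 and 7.71 to 12.2, 11.3 and 10.3 in cKO. The Xaf1 call (0.64 ± 0.17, adjusted p = 0.0455) held in only 3 of 12 fits that left out a library. Trim30a, Isg20 and Cmpk2 fell in WT by 0.79, 1.02 and 0.63 on the log2 scale and were not called between genotypes. Mx1, Rsad2 and Ifi44 stayed under the filter, with ranges of 2.30 to 5.70, 2.03 to 5.95 and 0.809 to 2.80.

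The surface and secreted members held the most abundant gene, the largest genotype effect after stimulation and the only member called lower in cKO there. Ly6a (Sca-1, ENSMUSG00000075602, mm9 chr15:74825308-74828064, minus strand), a lipid-anchored surface protein of activated T cells, stood at 32.8, 36.2 and 37.3 scaled TPM in WT ex vivo and at 52.0, 68.2 and 50.4 in cKO ex vivo. After stimulation it stood at 53.8, 30.7 and 58.1 in WT and at 156, 121 and 118 in cKO. It rose in cKO by 1.19 ± 0.22 (adjusted p = 0.00147) and differed between genotypes after stimulation by 1.49 ± 0.22 (adjusted p = 0.00250). The ex vivo difference of 0.66 was not called (adjusted p = 0.123), although the groups did not overlap. Ly6e (ENSMUSG00000022587, mm9 chr15:74785481-74790335, plus strand), a related protein known to block entry of coronaviruses, overlapped between genotypes ex vivo, with 584, 573 and 686 in WT and 601, 639.8 and 628 in cKO. It fell to 318, 307 and 357 in WT (-0.91, adjusted p = 9.41e-05, but 0.00 under quantile normalization) and further, to 236, 227 and 209, in cKO (-1.47, adjusted p = 3.61e-06). The genotype effect after stimulation was -0.54 ± 0.10 (adjusted p = 0.0110, and 0.0614 without WT stimulated 3), and the interaction of -0.57 was not called (adjusted p = 0.102).

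Cxcl10 (ENSMUSG00000034855, mm9 chr5:92775664-92777915, minus strand), the chemokine that draws CXCR3-bearing T cells, was higher in cKO both before and after stimulation. Its levels were 21.1, 19.5 and 22.4 scaled TPM in WT ex vivo and 39.8, 36.4 and 52.6 in cKO ex vivo, then 10.4, 6.78 and 9.13 in WT stimulated and 17.7, 19.0 and 21.2 in cKO stimulated. The genotype effect was 0.98 ± 0.16 (adjusted p = 0.00559) and 1.07 ± 0.16 (adjusted p = 0.00273), and stimulation lowered Cxcl10 in WT (-1.19) and in cKO (-1.10, adjusted p = 0.000335). The interaction was 0.09 ± 0.22 (adjusted p = 0.889). Lgals3bp (ENSMUSG00000033880, mm9 chr11:118254065-118263406, minus strand), a secreted glycoprotein, fell from 34.5, 30.3 and 44.5 to 14.8, 12.03 and 15.7 in WT (-1.29, adjusted p = 9.17e-05) and from 39.3, 42.6 and 32.8 to 29.0, 28.2 and 26.03 in cKO (-0.44, adjusted p = 0.0329). Its genotype effect after stimulation was 0.93 ± 0.15 (adjusted p = 0.00416). Bst2 (tetherin, ENSMUSG00000046718, mm9 chr8:74058163-74061336, minus strand), which holds budding virus at the membrane, fell from 25.1, 28.2 and 32.5 to 10.8, 9.27 and 13.7 in WT (-1.28, adjusted p = 0.000325) and from 32.3, 28.4 and 24.8 to 14.7, 13.6 and 21.0 in cKO (-0.78, adjusted p = 0.00579). The 0.50 difference of Bst2 after stimulation was not called (adjusted p = 0.122).

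Members with and without the response element core were both found among those higher in cKO after stimulation. Of the 13 tested members with the core, such as Stat2 and Isg15 shown above, 7 were called higher (3.30% of all tested genes were), with a median of 0.57. Of the 14 tested members with a promoter entry but no core, such as Samhd1, 7 were called higher, with a median of 0.41. In WT on stimulation 11 of the 13 fell (median -1.10) and 11 of the 14 (median -0.57), beside 19.3% of all tested genes. These are descriptions of a 300 base window, with no test.

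The genes upstream of the members were counted in the same fit. Ifnar1, a subunit of the type I receptor, was lower in cKO after stimulation, at 46.7, 55.5 and 48.3 scaled TPM in WT and 25.2, 33.9 and 31.5 in cKO (-0.72 ± 0.14, adjusted p = 0.0105). Of 9 tested sensing adaptors and IRFs, 1 was higher ex vivo (3.62% of all tested genes were) and 1 (Ikbke) was lower after stimulation in cKO (3.63%). Of the 19 interferon genes in the table, 18 stayed under the filter with at most 23 reads in any library, among them Ifnb1 with 7 to 19 reads.

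The remaining interferon gene, Ifng, was tested and was higher in cKO in both states. It stood at 17.6, 25.8 and 24.03 scaled TPM in WT ex vivo against 53.2, 68.7 and 91.7 in cKO ex vivo (1.60 ± 0.26, adjusted p = 0.00616). After stimulation it stood at 4.59, 2.76 and 4.67 against 39.6, 24.1 and 21.8 (2.54 ± 0.26, adjusted p = 0.000325). Among 15 tested targets known mainly for interferon gamma, 14 were higher in cKO after stimulation (3.30% of all tested genes were), 7 were called in the interaction (1.10%) and 2 ex vivo (5.29%). Examples after stimulation are Iigp1 (2.44 ± 0.20), Gbp2 (2.00 ± 0.22), Irf8 (1.29 ± 0.16) and Irf1 (0.85 ± 0.11). Of 10 tested negative regulators, 2 were higher and 1 lower in cKO after stimulation, where 6.93% of all tested genes were called. Socs1, which inhibits the receptor kinases, stood at 61.3, 38.5 and 51.1 in WT and at 278, 239 and 176 in cKO (2.18 ± 0.22, adjusted p = 0.000285), with an interaction of 2.04 ± 0.31 (adjusted p = 0.0137). The median change of the gamma targets after stimulation was 1.16, beside 0.66 for the 36 members.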

How the data were processed

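RNA was sequenced from YFP+ CD4+ Treg in 12 libraries. Per the labels and methods, total RNA was depleted of ribosomal RNA, made into stranded libraries, aligned by the authors to mm9 with STAR 2.6.0c and counted over Ensembl exons with HTSeq 0.6.1, which leaves reads in same-strand overlaps unassigned. The deposited table holds, for each gene and library, TPM (a signal per length and depth, by the authors) and a log2 column of the same values made by the authors. From the pair of deposited columns the reads were recovered (99.9945% whole within 0.001). A further deposited table holds the authors' own comparisons (log2 fold changes, test statistics and p-values) and was not used.

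TPM was divided by trimmed mean of M-values factors (30% of M and 5% of A trimmed), and log2(scaled TPM + 1) was tested with limma 3.58.1 in R 4.3.3, with 4 group means and an intensity trend. The code was tested on simulated data. The filter of 5 TPM was set with the results of an earlier fit at 1 TPM known. Members and lists were likewise drawn up with earlier results of these data known, although the rule for members uses gene names only. Values per library are given for members called in a genotype comparison or the interaction and for the 5 largest called rises and falls in each stimulation comparison. The alternatives were other filters, scalings and a pseudocount of 0.1, a replicate block, fits of 2 groups, each library left out, and limma-voom. Precision is limited by 8208659 to 20247649 assigned reads and 3 libraries per group. An item withheld from this text, and the counts that need it, are not reported here.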

Additional observations from a re-analysis of the deposited data

Results flagged for a closer look

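For 8 members the effect of stimulation differed between the genotypes by the interaction test itself (limma, adjusted p under 0.05), and each difference was toward a higher level in stimulated cKO Treg. The log2 interaction was 1.75 for Usp18, 1.25 for Zbp1, 1.12 for Rtp4, 1.01 for Samhd1, 0.99 for Dtx3l, 0.96 for Parp14, 0.80 for Ifi203 and 0.77 for Parp9. The gap test for an outlying sample needs at least 4 samples and was not run on groups of 3.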

How the results depend on the processing

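With genes down to 1 TPM in the scaling and test, which covers all 41 members, limma called 0 members ex vivo, 0 after stimulation and 0 in the interaction (8, 19 and 7 at an unadjusted p under 0.05), while limma-voom on recovered reads, with the 5 TPM filter kept, called 8, 22 and 13. With no filter these counts were also 0, 0 and 0 (8, 20 and 8 unadjusted). With the TPM as deposited 2 members were called ex vivo, 1 after stimulation, 12 in WT on stimulation and 0 in the interaction. The median change of the members after stimulation was 0.28 at 1 TPM, 0.28 with no filter and 0.39 as deposited, that of the interaction 0.29, 0.27 and 0.14, that of stimulation in WT -0.87, -0.85 and -0.53, and that of stimulation in cKO -0.68, -0.67 and -0.56. The ex vivo median was 0.18 as deposited, beside 0.21 for the 13318 genes. These settings shift all genes: relative to the scaling used here the median of the 13318 genes after stimulation moved by -0.27 at 1 TPM and by -0.26 as deposited. At 1 TPM, with no filter and as deposited, the median of these genes was -0.297, -0.313 and -0.517 for the interaction. For stimulation it was -0.229, -0.204 and 0.183 in WT, and -0.505, -0.495 and -0.309 in cKO. Fits of 2 groups called 2 members ex vivo. The interaction had 13 calls under quantile normalization, and a median of 0.71 with a pseudocount of 0.1 and 0.72 with limma-voom. Signs changed for Ly6e in WT on stimulation under quantile normalization (0.001), for Dtx3l in cKO on stimulation at 1 TPM (-0.07) and with no filter (-0.059), and for Eif2ak2 there at 1 TPM (-0.21), with no filter (-0.20) and as deposited (-0.006). The cause of these changes was not tested. A stricter core, with C after the closing GAAA, was found in 12 member promoters (31.6%) and 0.819% of all.

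Leaving out 1 library gave 2 to 5 calls ex vivo (medians -0.08 to 0.02), 17 to 21 after stimulation (0.60 to 0.69), 24 to 30 in WT (-0.80 to -0.63), 16 to 21 in cKO (-0.39 to -0.14) and 1 to 8 in the interaction (0.43 to 0.70). Over the 82 calls on single members, each refitted under every setting, 1419 values kept the direction and the call, 288 kept the direction but lost the call and 6 changed sign.

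Correlations of deviations between groups ran from -0.21 to 0.26 over 18 same-numbered pairs and from -0.19 to 0.22 over 36 differently numbered pairs. These overlapping ranges cannot show whether libraries of the same number had a common origin. With the replicate number as a block, 3 members were called ex vivo, 19 after stimulation, 28 in WT, 20 in cKO and 1 in the interaction.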

Other observations

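Of the 5 members under the 5 TPM filter, Rsad2 (viperin, an enzyme that makes a chain-terminating nucleotide) and Mx1 (an antiviral GTPase) were called in a fit that admitted genes down to 1 TPM. Rsad2 fell by 0.87 on the log2 scale in WT on stimulation (limma, adjusted p = 0.00729) and by 0.58 in cKO (adjusted p = 0.0224). Mx1 fell by 0.68 in cKO (adjusted p = 0.0130), and its change of -0.49 in WT was not called (adjusted p = 0.107). That fit moved the median of the 13318 genes by -0.23 in WT and by -0.49 in cKO relative to the scaling used elsewhere. Oasl1, Ifi44 and Ifi204 were called in no comparison of the same fit.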
